A study of Mus musculus with 6 samples.

Results

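The genes described here are the DEAD and DEAH box helicases other than the germ cell helicases Ddx4 and Ddx25. They were chosen by name: every probe whose platform symbol, or its current form, starts with Ddx or Dhx and a number was taken, and Ddx4 and Ddx25 were left out. This gave 48 probes for 46 genes, of 23473 probes and 16390 different gene symbols on the array. By name, 30 of the genes are of the Ddx kind and 16 of the Dhx kind. Eif4a3 is among the 30 because the platform lists it as Ddx48, Ddx39b was found under Bat1a and Dhx58 under D11Lgp2e. Ddx19a, Ddx23, Ddx39a, Ddx3y, Ddx43 and Ddx60 were not analysed here. Ddx3x and Ddx54 had 2 probes each, and the brightest probe of a gene gives its value.

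All samples were testis RNA of mice of strain C57/BL6, with no genetic change or treatment in the labels and no age given. The MVH precipitate is the RNA that came down with an antibody against MVH, the protein of Ddx4, from a cleared lysate of testicular cells. The IgG precipitate came from the same procedure with normal rabbit IgG, which has no known target in the tissue. Total RNA, labelled WCE, was taken with no antibody. Each group had 2 arrays. Whether the 2 came from different animals is not stated. The p-values therefore cover the spread between arrays, which may be technical. A lysate pools all cells of the testis, so that fewer cells of a type and less RNA per cell cannot be told apart.

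DEAD and DEAH box proteins use ATP to bind, clamp or unwind RNA, and both names spell part of a conserved ATPase motif in amino acid letters. Members act at nearly every step in the life of an RNA, from splicing and ribosome assembly to export, translation and decay. DEAD box proteins mostly open short local duplexes, whereas many DEAH box proteins move along RNA and remodel spliceosomes. Male germ cells store many mRNAs for late translation, and MVH is the DEAD box protein of their RNA granules. What was measured here is the mRNA of each helicase gene in each sample, not its protein or its activity.

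The values are probe intensities scaled to a median of 30 on each array. On that scale probes left blank on some array had medians of 2.6 to 3.5 on the arrays that listed them, so single-digit values are dim. The main probes of the 46 genes lay between 3.5 and 3226. Of the genes, 45 were listed on all 6 arrays. Ddx6, which represses translation and promotes decapping, was blank on IgG precipitate 2 and was not tested against IgG. The log2 values of the 45 genes correlated at 0.984 between the MVH arrays, 0.981 between the IgG arrays and 0.983 between the total RNA arrays, with an SD of the log2 difference of 0.42, 0.51 and 0.43. All 12 spermatid markers and 10 of 10 meiotic markers were listed on all 6 arrays. The spermatid markers summed to 307978 and 397617 with MVH, 279875 and 358375 with IgG, against 328464 and 362532 in total RNA. Prm2 and Tnp1 both read 74564 and 77410 in total RNA, the highest values listed on those arrays. Values at the top of the scale may hide differences, which limits these sums. Gene by gene, 10 of the 12 had a positive MVH minus IgG difference (median 0.41), against 55% of all probes. Both MVH arrays lay above both IgG arrays for 7, against 29.9% of all probes, and 1, Pgk2, passed the threshold. Between IgG and total RNA 9 of the 12 differences were negative. The 10 meiotic markers had a median MVH minus IgG difference of -0.13, with 4 positive and 6 negative. Of these, 1 passed higher and 2 lower. The 6 spermatogonial markers listed throughout summed to 1582 and 1513 with MVH, 3135 and 2260 with IgG, against 1996 and 2371 in total RNA. Most of each sum was Uchl1, at 1161 and 1177 with MVH and 2933 and 2055 with IgG. Gene by gene, the median MVH minus IgG difference of the 6 was 0.20, with 4 positive and 2 negative differences, and 1 passed, higher. Over all probes 3.82% passed higher and 4.15% lower. The somatic cell types did not share a direction. The 6 Leydig cell markers summed to 512 and 494 with MVH, 3004 and 1888 with IgG, against 662 and 1134 in total RNA. All 6 had both MVH arrays below both IgG arrays, against 23.8% of all probes. Of them, 4 passed a limma adjusted p under 0.05, against 4.15% of all probes lower. The 5 peritubular and vascular markers listed throughout summed to 544 and 343 with MVH, 3161 and 1467 with IgG, against 409 and 503 in total RNA. Most of each sum was Acta2, at 502 and 295 with MVH and 3037 and 1388 with IgG. Of the 5 differences between MVH and IgG, 4 were negative and 1 positive, and 2 passed, both lower with MVH. The 9 Sertoli cell markers summed to 4239 and 4115 with MVH, 9512 and 7107 with IgG, against 5666 and 6183 in total RNA. Most of each Sertoli sum was Clu, at 3278 and 3367 with MVH and 5907 and 5264 with IgG. The MVH minus IgG median of the 9 markers was 0.04, with 5 positive and 4 negative differences, and 2 passed, both lower. The 4 macrophage and blood markers summed to 82.3 and 89.3 with MVH, 73.7 and 65.9 with IgG, against 89.2 and 80.4 in total RNA. All 4 differences between MVH and IgG were positive (median 0.45), 3 without overlap (against 29.9% of all probes), and 0 passed. The part of these cells in the helicase differences was not tested.

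The first comparison asked which helicase mRNAs stood higher with MVH than with IgG, relative to the median of each array. Ddx49, Ddx59 and Ddx20 were higher, by 5.08-fold, 3.17-fold and 3-fold. Dhx35, Ddx47 and Dhx33 were lower, with log2 differences of -1.39, -1.31 and -1.28. These 6 are 13.3% of the 45 helicase genes tested, against 7.97% of all probes past the same threshold of limma adjusted p under 0.05. Each direction holds 6.67% of them, against 3.82% of all probes higher and 4.15% lower. A difference above 0 was found for 23 genes (51.1%, against 55% of all probes). Differences of at least 1 on the log2 scale were higher for 4 genes (8.89%, against 7%) and lower for 6 (13.3%, against 7.64%). The median log2 difference was 0.05 over the helicase genes and 0.07 over all probes tested. Thus 3 genes were higher and 3 lower, with no common direction.

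**Figure D1:**
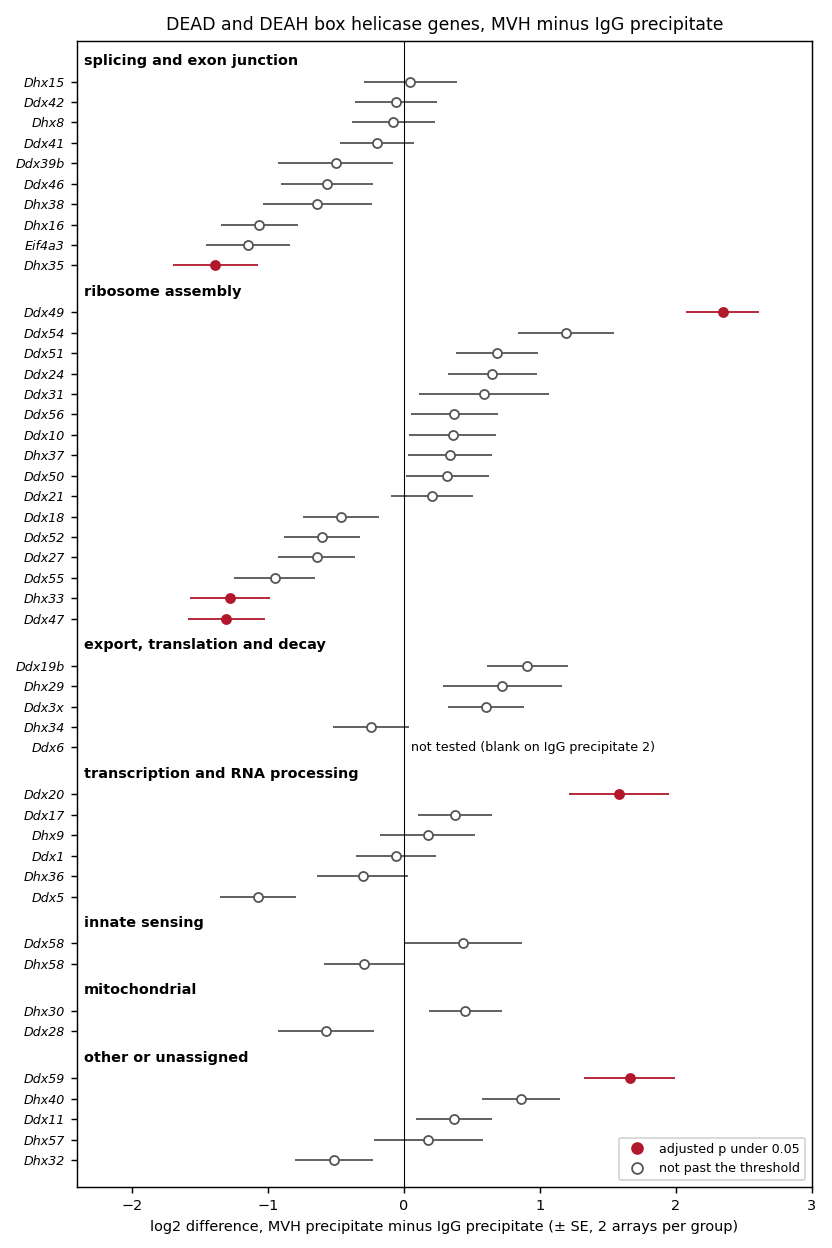
Log2 difference between the MVH and the IgG precipitate for each helicase gene, grouped by role, with the standard error of the fit as bars (2 arrays per group). Filled points are the 6 genes with adjusted p under 0.05. The splicing genes lie at or below 0.05, whereas the ribosome assembly genes spread from -1.31 to 2.34.

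Ddx49, a nucleolar helicase of ribosomal RNA processing, had scaled intensities of 73.6 and 65.9 with MVH, 15.0 and 12.5 with IgG, against 48.4 and 45.8 in total RNA. Both MVH arrays lay above all others, and both IgG arrays lay below total RNA. The log2 difference between MVH and IgG was 2.34 ± 0.27 (SE, n = 2 per group, limma adjusted p = 0.0149). Ddx59, a gene whose loss in humans causes an oral, facial and digital syndrome, had 16.2 and 18.8 with MVH, 4.30 and 7.07 with IgG, against 13.4 and 9.40 in total RNA. Its groups did not overlap either, but the IgG values were dim. The difference was 1.66 ± 0.34 (adjusted p = 0.027) and shrank to 1.09 when 4 was added to each intensity before log2. Ddx20, also called Gemin3, belongs to the SMN complex that assembles spliceosomal particles. It had 37.8 and 47.9 with MVH, 11.1 and 18.2 with IgG, against 17.6 and 10.2 in total RNA. Here the IgG and total RNA arrays overlapped, and the MVH arrays alone stood apart. Ddx20 was higher with MVH than with IgG by 1.58 ± 0.37 (adjusted p = 0.0377).

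The lower genes had their high values with IgG. Dhx35, a helicase found in the human spliceosome, had 14.9 and 20.2 with MVH, 42.2 and 48.8 with IgG, against 18.8 and 27.9 in total RNA. Its MVH and total RNA arrays overlapped, and the log2 difference between MVH and IgG was -1.39 ± 0.31 (adjusted p = 0.0343). Ddx47, of ribosomal RNA processing, had 302 and 363 with MVH, 877 and 762 with IgG, against 427 and 548 in total RNA. The 3 groups did not overlap, with total RNA in the middle. Ddx47 differed by -1.31 ± 0.28 (adjusted p = 0.0314). Dhx33, which acts in ribosomal RNA synthesis and in translation, had 92.1 and 84.4 with MVH, 175 and 261 with IgG, against 102 and 109 in total RNA. The MVH arrays were the lowest and the IgG arrays the highest, with a log2 difference of -1.28 ± 0.29 (adjusted p = 0.0363).

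**Figure D2:**
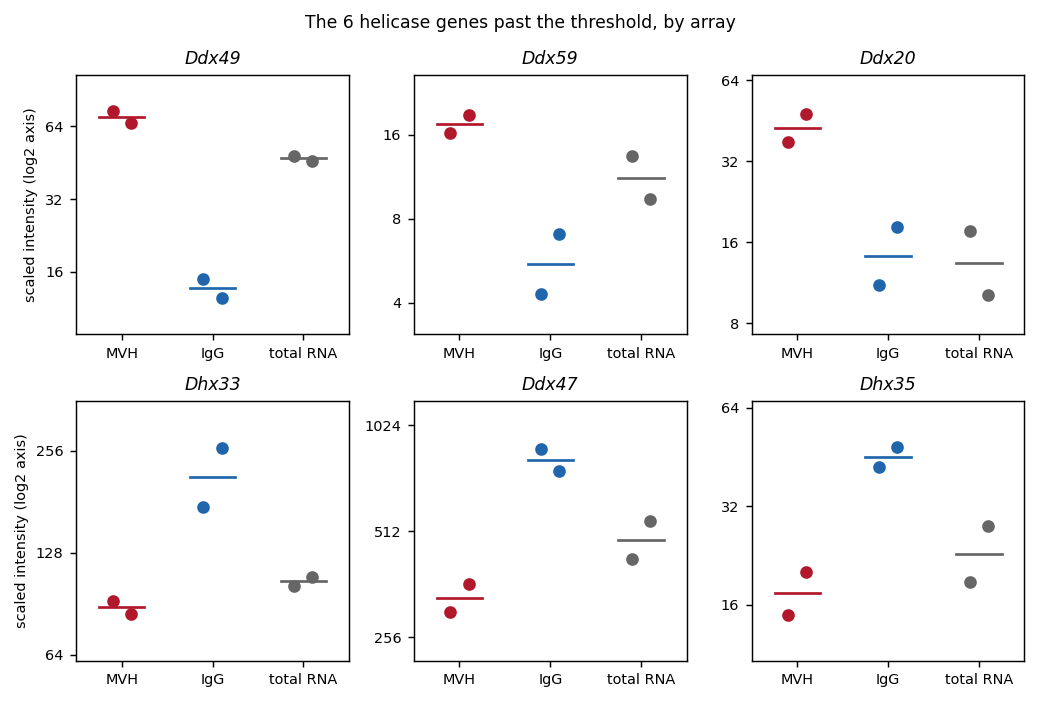
Scaled intensity of the 6 helicase genes past the threshold on each array (points, log2 axis), with the geometric mean of the 2 arrays of a group as a line. For Ddx49, Ddx59 and Ddx20 both MVH arrays lie above both IgG arrays, and for Dhx33, Ddx47 and Dhx35 both lie below.

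These 6 calls rest on a spread shared by 3 groups, and fits with fewer arrays estimate that spread on fewer degrees of freedom. Leaving out either total RNA array did not change the differences between MVH and IgG. It gave the same adjusted p as the 4 arrays alone. Without MVH precipitate 2, without total RNA 1, without total RNA 2, or with only the 4 arrays compared, 0 of the 45 helicase genes passed, and over all probes 0 passed as well. Ddx49 then had adjusted p = 0.103, 0.0533, 0.0533 and 0.0533, and the other 5 had values of 0.0612 to 0.184. Without MVH precipitate 1 only Ddx49 passed (adjusted p = 0.04735). Without IgG precipitate 1, Ddx49 (0.0195), Ddx54 (0.0393) and Dhx33 (0.0367) passed, and without IgG precipitate 2, Ddx49 (0.033), Ddx59 (0.0336), Ddx20 (0.0392) and Eif4a3 (0.0423) passed. With no centring, which leaves the lower deposited median of IgG precipitate 2 in place, 3 genes were higher and 0 lower. The differences of Dhx35, Ddx47 and Dhx33 were then -1.12, -1.04 and -1.01 (adjusted p = 0.134, 0.167 and 0.147), while the median of all probes moved to 0.34. With quantile normalization 3 were higher and 5 lower. The sign of all 6 differences was the same under every one of the 17 alternatives, but most of these could not change it. Filters, probe choices and variance settings left the differences as they were. The MVH and IgG arrays of these genes did not overlap, so leaving out an array could not reverse a sign. Only the other scalings and the offset could have done so.

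**Figure D3:**
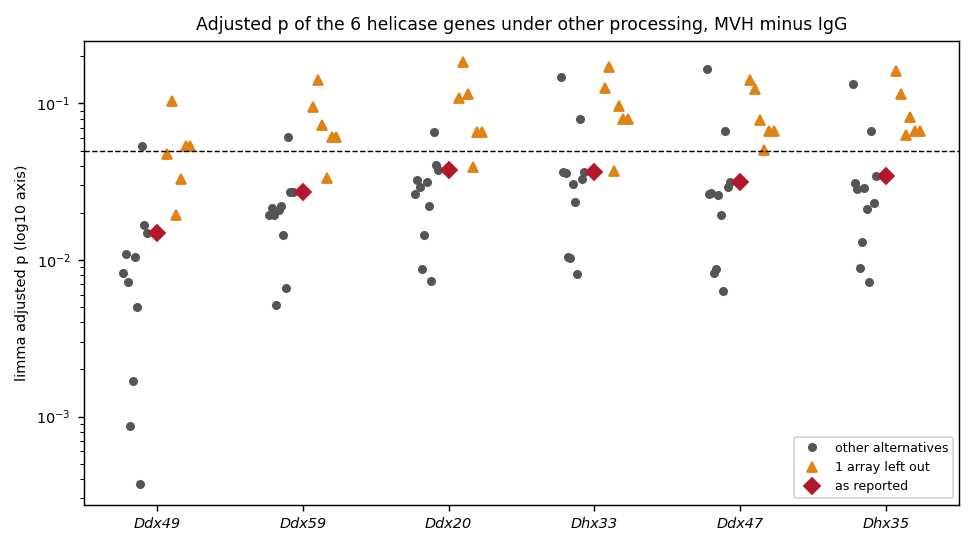
Limma adjusted p of the MVH minus IgG difference (log10 axis) for the 6 helicase genes, as reported (diamonds), with 1 array left out (triangles) and under the other alternatives (circles). The dashed line is the threshold of 0.05, and Ddx49 has the most alternatives below it, 13 of 17.

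The arrays of MVH and IgG did not overlap for 29 of the 45 genes. Both MVH arrays were above both IgG arrays for 14 genes (31.1%, against 29.9% of all probes) and below for 15 (33.3%, against 23.8%). The share above was close to that of all probes. Only 6 genes had both MVH arrays above all 4 other arrays (13.3%, against 11.4% of all probes), and these were Ddx20, Ddx24, Ddx49, Ddx51, Ddx59 and Dhx40. Another 6 had both MVH arrays below all 4 others (13.3%, against 11.5%), namely Ddx5, Ddx18, Ddx47, Ddx55, Dhx33 and Eif4a3.

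Among 10 helicases of the spliceosome and of the exon junction, 0 were called higher and 1, Dhx35, lower, with a median log2 difference of -0.53, against 0.07 over all probes. The difference was negative for 9 of the 10 and for 8, 7 and 6 of them after centring on the 75th percentile, quantile normalization and no centring, with medians of -0.47, -0.51 and -0.27. Both MVH arrays were below both IgG arrays for 6 of the 10 and above for 0, against 23.8% and 29.9% of all probes. The 6 include Ddx41 and the dim Dhx38, which were barely apart. Their nearest arrays read 113.2 with MVH and 113.9 with IgG, and 3.80 and 3.89. The role groups were revised after values were seen, so these counts describe the groups only. Dhx16, which drives the first catalytic step of splicing, had 692 and 911 with MVH, 1825 and 1504 with IgG, against 756 and 809 in total RNA. The IgG arrays were about 2.09 times the MVH arrays, and MVH overlapped total RNA. The difference of -1.06 ± 0.28 did not pass (adjusted p = 0.0541). Eif4a3, the helicase that marks exon junctions on spliced mRNA, had 917 and 1001 with MVH, 2654 and 1691 with IgG, against 1073 and 1307 in total RNA (-1.14 ± 0.31, adjusted p = 0.0561). Both passed when probes without a symbol and second probes were left out (0.0467 and 0.0481). They also passed with quantile normalization (0.0411 and 0.0451), and neither passed with no centring. Their side of the threshold thus depends on the processing.

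The other splicing helicases were closer to 0. Ddx46, which helps the U2 particle bind the branch site, had 1081 and 1347 with MVH, 1398 and 2272 with IgG, against 809 and 1158 in total RNA, a difference of -0.56 ± 0.34 (adjusted p = 0.343). Ddx39b, which serves splicing and export, had 53.1 and 89.3 with MVH and 146 and 64.8 with IgG. Those groups overlapped, and its difference of -0.50 became 0.09 without IgG precipitate 1. Dhx15, which takes spliceosomes apart, had 546 and 1030 with MVH, 684 and 771 with IgG, against 500 and 545 in total RNA. Its difference between the precipitates was 0.05 ± 0.34, and both precipitates lay above total RNA. Dhx8, which releases spliced mRNA, differed by -0.08, Ddx42 by -0.06 and Ddx41 by -0.19. Dhx38, which acts before the second catalytic step, was dim, at 3.70 and 3.80 with MVH, 8.70 and 3.89 with IgG, against 5.20 and 3.50 in total RNA.

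Helicases of ribosome assembly went both ways. Of 16 genes, 1 was called higher (Ddx49) and 2 lower (Ddx47 and Dhx33), against 3.82% and 4.15% of all probes, and the median was 0.33. Without overlap, 6 were above IgG and 6 below, against 29.9% and 23.8% of all probes. Ddx54, a nucleolar helicase, had 334 and 251 with MVH, 175 and 92.3 with IgG, against 293 and 265 in total RNA on its brightest probe. The difference of 1.19 ± 0.35 (adjusted p = 0.0736) belongs to that probe alone. Its second probe had 154 and 147 with MVH, 171 and 182 with IgG, against 138 and 132 in total RNA, a difference of -0.23 ± 0.26, so the probes differ in sign. Averaged over both probes the difference was 0.48 (adjusted p = 0.331). Probe sequences were not used here, so which transcripts each probe reads is not known.

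At the lower end of this group, Ddx55 had 5.30 and 8.10 with MVH, 13.2 and 12.1 with IgG, against 9.90 and 10.2 in total RNA, a difference of -0.95 ± 0.30 (adjusted p = 0.0847). The MVH arrays were the lowest, in a dim range. Ddx18 had 541 and 424 with MVH, 603 and 721 with IgG, against 655 and 603 in total RNA (-0.46 ± 0.28, adjusted p = 0.343). Ddx27 had 139 and 170 with MVH and 278 and 208 with IgG, a difference of -0.64 ± 0.28 (adjusted p = 0.198). Ddx52 had 201 and 230 with MVH and 297 and 358 with IgG (-0.60 ± 0.28, adjusted p = 0.216). Neither overlapped between the precipitates, and both MVH ranges overlapped total RNA. Ddx24 had 208 and 285 with MVH, 192 and 125 with IgG, against 146 and 185 in total RNA, a difference of 0.65 ± 0.33 (adjusted p = 0.252). Ddx51 had 15.6 and 22.5 with MVH, 13.1 and 10.4 with IgG, against 12.5 and 14.7 in total RNA (0.68 ± 0.30, adjusted p = 0.197). In these last 2 genes both MVH arrays lay above all 4 others. Ddx31 was the least steady, at 11.8 and 12.3 with MVH, 12.3 and 5.19 with IgG, against 11.4 and 25.0 in total RNA. Ddx10, Ddx21, Ddx50, Ddx56 and Dhx37 differed by 0.21 to 0.37.

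Helicases of mRNA export, translation and decay gave no call. Of 5 genes 4 were tested, with a median of 0.66. Ddx19b, which strips proteins from mRNA at the nuclear pore, had 226 and 329 with MVH, 152 and 139 with IgG, against 254 and 203 in total RNA (0.91 ± 0.30, adjusted p = 0.0969). Its near-identical neighbour Ddx19a was not analysed here, and the probe may read both. Ddx3x, which helps ribosomes load on mRNAs with structured leaders, had 305 and 243 with MVH, 172 and 186 with IgG, against 283 and 228 in total RNA. MVH lay above IgG and overlapped total RNA, with a difference of 0.60 ± 0.28 (adjusted p = 0.217). A second, dimmer Ddx3x probe differed by 0.71 ± 0.38 (adjusted p = 0.285). D1Pas1, a testis copy of Ddx3x whose name the rule does not cover, is named after its values were seen. It had 1474 and 2577 with MVH, 940 and 1113 with IgG, against 1318 and 1057 in total RNA (0.93 ± 0.33, adjusted p = 0.123). The copies are alike, so the probes may share signal.

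Dhx29, which helps the small ribosomal subunit scan structured leaders, was high on a single array, at 17.0 and 46.1 with MVH, 18.6 and 15.4 with IgG, against 14.5 and 17.0 in total RNA. The difference of 0.72 ± 0.44 became 0.00 without MVH precipitate 2. Dhx34, of nonsense-mediated decay, had 270 and 208 with MVH, 294 and 268 with IgG, against 276 and 322 in total RNA (-0.24 ± 0.28, adjusted p = 0.642). Ddx6 had 14.6 and 7.40 with MVH, 17.9 on the IgG array that listed it, and 13.5 and 7.30 in total RNA.

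Among helicases of transcription and RNA processing, Ddx20 was higher and none of the other 5 passed. Ddx5 and Ddx17 are close relatives that serve as transcription cofactors and in microRNA processing, and their differences had opposite signs. Ddx5 had 199 and 245 with MVH, 430 and 500 with IgG, against 246 and 307 in total RNA, a difference of -1.07 ± 0.28 (adjusted p = 0.0521). It passed when probes without a symbol and second probes were left out (0.04515) and when 4 was added before log2 (0.0176). With no centring it did not pass (0.259), so its side of the threshold depends on the processing. Ddx17 had 77.0 and 65.0 with MVH, 59.7 and 49.9 with IgG, against 66.3 and 58.8 in total RNA, a difference of 0.37 ± 0.27 (adjusted p = 0.442). The difference between the 2 genes was not tested. Dhx9, also known as RNA helicase A, had 32.1 and 34.7 with MVH and 41.1 and 21.2 with IgG, so that its groups overlapped. Dhx36, which unwinds G-quadruplexes, had 111 and 187 with MVH, 153 and 208 with IgG, against 75 and 87.7 in total RNA. Ddx1, of the tRNA ligase complex, had 1476 and 2187 with MVH, 1771 and 1966 with IgG, against 1193 and 1312 in total RNA. Both precipitates lay above total RNA for these last 2 genes, and the precipitates overlapped each other.

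The remaining helicases included sensors of foreign RNA and mitochondrial proteins. Ddx58, the sensor RIG-I, had 688 and 354 with MVH, 433 and 306 with IgG, against 833 and 421 in total RNA. In each group 1 array was well above the other, and the groups overlapped (0.44 ± 0.43, adjusted p = 0.58). Its relative Dhx58 differed by -0.29. Dhx30, of mitochondrial ribosome assembly, differed by 0.45, and Ddx28, with a like role, had 17.5 and 16.0 with MVH, 35.4 and 17.5 with IgG, against 21.1 and 21.9 in total RNA. Dhx40 had 2404 and 3226 with MVH, 1702 and 1376 with IgG, against 1221 and 1143 in total RNA, with no overlap between any groups (0.86 ± 0.29, adjusted p = 0.099). Dhx32 had 294 and 339 with MVH, 519 and 391 with IgG, against 188 and 235 in total RNA. For Dhx32 too the groups stood apart, with the IgG arrays highest (-0.51 ± 0.29, adjusted p = 0.309). Ddx11, a DNA helicase of sister chromatid cohesion, differed by 0.37, and Dhx57 was dim on all arrays.

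Set against total RNA, the helicase mRNAs of the MVH precipitate can be read relative to their abundance in the tissue. No helicase gene passed in limma (0 of 46, against 0.0138% of all probes, 0.00459% higher and 0.00918% lower), and 3 were higher and 0 lower at an unadjusted p under 0.05 (6.52% and 0%, against 4.53% and 4.41% of all probes). The 3 were Ddx20 (1.67 ± 0.37, adjusted p = 0.234), Dhx40 (1.24 ± 0.29, adjusted p = 0.238) and Dhx36 (0.83 ± 0.33, adjusted p = 0.502). Ddx20 passed without the dimmest 25% of probes (adjusted p = 0.0483), and with a variance trend Ddx20 and Dhx40 did (0.0387 and 0.0477). The median was 0.08, against -0.02 over all probes, and 28 genes had a difference above 0 (60.9%, against 47.1%). Differences of at least 1 were higher for 2 genes (4.35%, against 2.39%) and lower for 0 (against 1.45%). Both MVH arrays were above both total RNA arrays for 13 genes (28.3%, against 18.7%) and below for 8 (17.4%, against 21.6%). Ddx49 differed by 0.56 ± 0.27, Ddx59 by 0.64 ± 0.34, Dhx29 by 0.83 ± 0.44 and Dhx32 by 0.59 ± 0.29. At the other end stood Ddx55 (-0.62 ± 0.30), Ddx47 (-0.55 ± 0.28), Ddx31 (-0.49 ± 0.48) and Dhx35 (-0.40 ± 0.31).

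The IgG precipitate against total RNA gave the wider spread of helicase values, from -1.78 to 1.13 against -0.62 to 1.67 for the MVH precipitate, over 45 and 46 genes. None passed in limma (0 of 45, against 0.00934% of all probes). At an unadjusted p under 0.05, 9 were higher and 3 lower (20% and 6.67%, against 9.35% and 8.86% of all probes). The highest were Dhx36 (1.13 ± 0.33, adjusted p = 0.13), Dhx32 (1.10 ± 0.29, adjusted p = 0.104), Dhx16 (1.08 ± 0.28, adjusted p = 0.103) and Dhx33 (1.02 ± 0.29, adjusted p = 0.124). The lowest were Ddx49 (-1.78 ± 0.27, adjusted p = 0.0542), Ddx54 (-1.13 ± 0.35, adjusted p = 0.145), Ddx31 (-1.08 ± 0.48, adjusted p = 0.276) and Ddx59 (-1.03 ± 0.34, adjusted p = 0.159). A difference above 0 was found for 25 genes (55.6%, against 41.4% of all probes). Differences of at least 1 were higher for 4 genes (8.89%, against 5.17%) and lower for 4 (against 3.49%). Ddx49 passed under 8 of 17 alternatives, with adjusted p from 0.00436 to 0.349. Both IgG arrays were above both total RNA arrays for 18 genes (40%, against 20% of all probes) and below for 8 (17.8%, against 29.6%). Of the 10 splicing genes 9 had a positive difference, with a median of 0.64, and 8 were without overlap. The count of positive differences was 9 under each of the 3 other scalings too. This group was revised after the values were seen, and the same IgG arrays enter its MVH minus IgG counts. Its counts are thus a description and not a second observation. With no centring the median of the splicing genes was 0.37. The median of all probes then moved from -0.10 to -0.37 and that of all helicase genes from 0.09 to -0.17. Beside this, IgG minus total RNA was positive for 6 of 6 Leydig cell markers, 3 of 5 peritubular and vascular markers, 4 of 9 Sertoli cell markers and 0 of 4 macrophage and blood markers, and 0 of these passed.

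**Figure D4:**
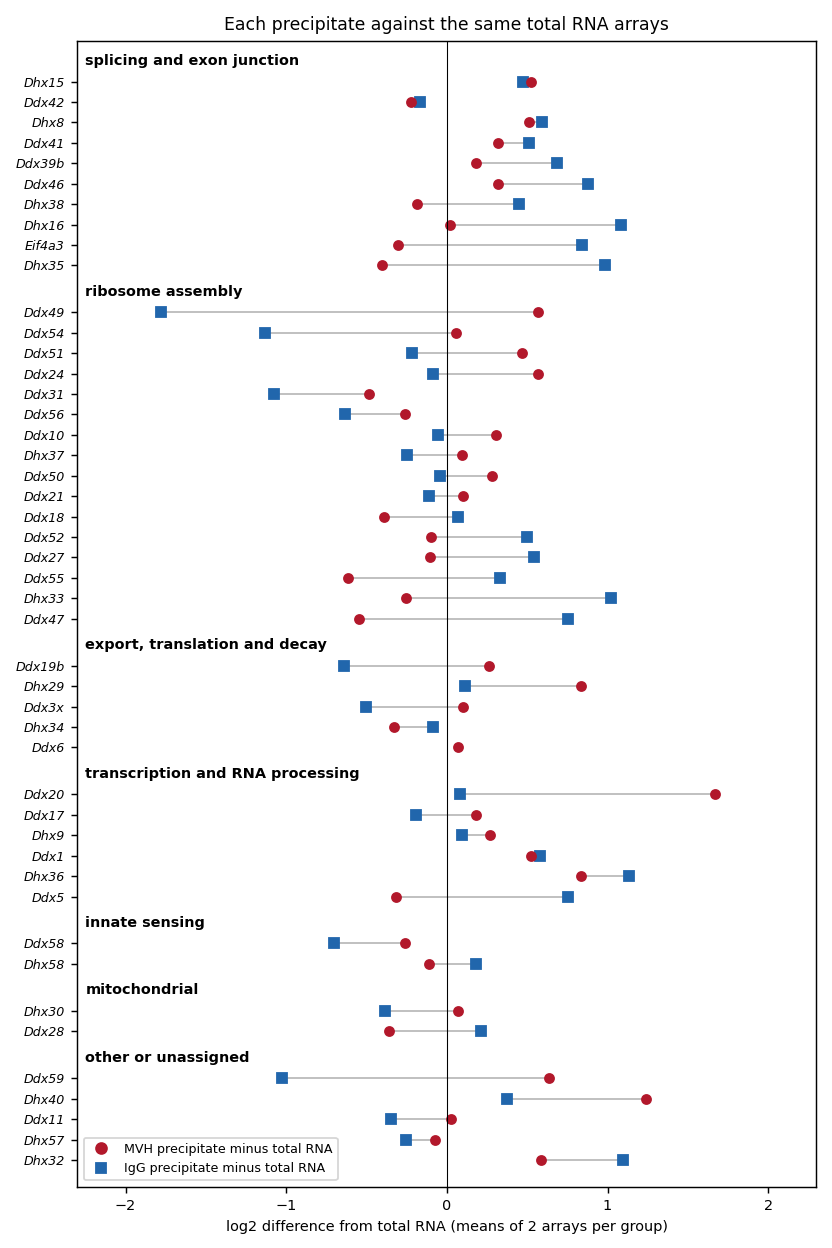
Log2 difference of the MVH precipitate (circles) and of the IgG precipitate (squares) from the same total RNA arrays, for each helicase gene by role. For Dhx35, Ddx47 and Dhx33 the IgG value lies at 0.76 to 1.02 and the MVH value at -0.55 to -0.26, and for Ddx49 and Ddx59 the IgG value lies at -1.78 and -1.03. Both values of a gene use the same total RNA arrays.

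The 3 comparisons share arrays, so their values are given side by side without a test between them. For Ddx49 the differences from total RNA were 0.56 with MVH and -1.78 with IgG. For Ddx59 they were 0.64 and -1.03. For Ddx20 they were 1.67 and 0.08, so that most of its gap between the precipitates lay on the MVH side. The IgG value of Ddx20 had an SE of 0.37 and lay between -0.31 and 0.48 under the alternatives. The values of Dhx33 were -0.26 and 1.02, of Ddx47 -0.55 and 0.76, and of Dhx35 -0.40 and 0.99. Dhx40 was above total RNA in both precipitates, at 1.24 and 0.37.

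The names of the 2 kinds of helicase and the size of the genes were set beside these values. Of 29 genes of the Ddx kind tested between MVH and IgG, 3 were called higher and 1 lower (against 3.82% and 4.15% of all probes), with a median of 0.32. Of 16 Dhx genes, 0 were called higher and 2 lower, against the same shares, with a median of -0.16. The difference between the kinds was not tested. Across 45 genes the MVH minus IgG difference had a Spearman rho of 0.15 with the length of the gene's genomic span and of -0.28 with mean log2 intensity. The IgG minus total RNA difference had a rho of 0.41 with mean log2 intensity. The genes share the same arrays, and the mean includes the values compared, so these are descriptions only.

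A chosen list of helicases outside the naming rule gave 0 genes higher and 4 lower with MVH than with IgG, of 20 tested. The shares of all probes were 3.82% higher and 4.15% lower. The list had a median of -0.31 and did not hold D1Pas1, which differed by 0.93. The lower ones were Snrnp200, which unwinds U4 from U6 in the spliceosome (-1.47 ± 0.32, adjusted p = 0.0306), the translation helicases Eif4a2 (-1.38 ± 0.30, adjusted p = 0.0313) and Eif4a1 (-1.34 ± 0.28, adjusted p = 0.0301), and Mov10l1 (-1.22 ± 0.29, adjusted p = 0.0394), which is needed to make piRNAs. Snrnp200 had 749 and 858 with MVH, 2827 and 1744 with IgG, against 706 and 840 in total RNA. Thus its MVH and total RNA arrays overlapped and its IgG arrays were high. Ythdc2, a meiotic helicase, was dim and differed by -0.06. Of the helicases left out by choice, Ddx25 had 959 and 1886 with MVH against 279 and 199 with IgG, and Ddx4 had 1396 and 1559 against 1468 and 1391.

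Partners of the helicases gave 1 gene higher and 2 lower of 36 tested, with a median of -0.12. These counts are near the 3.82% of all probes higher and 4.15% lower. Thoc5 and Alyref both belong to the export complex that contains Ddx39b. Thoc5 was higher, at 261 and 263 with MVH, 86.5 and 95.0 with IgG, against 136 and 181 in total RNA (1.53 ± 0.28, adjusted p = 0.0214). Alyref was lower, at 120 and 96.6 with MVH, 397 and 322 with IgG, against 159 and 186 in total RNA (-1.73 ± 0.28, adjusted p = 0.0175). Smn1, the central subunit of the complex that holds Ddx20, was lower, at 223 and 137 with MVH, 547 and 367 with IgG, against 310 and 363 in total RNA (-1.36 ± 0.34, adjusted p = 0.046). Each of these partners had MVH arrays apart from its IgG arrays.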

How the data were processed

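RNA of 6 testis samples was measured with 1 array each, 2 per group. Amplified RNA was labelled with Cy5 through aminoallyl groups, per the labels' protocols. The authors deposited an intensity per probe on a linear scale. How arrays were scanned, corrected for background, scaled and left blank is not given in the sources used here. Deposited values had a median of 30 on 5 arrays and of 20.8 on IgG precipitate 2, which had the most blanks (1383, against 508 to 1063). The number of arrays limits the precision.

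Symbols came from the platform annotation and were updated through RefSeq synonyms of GRCm38.p6, which also gave the length of each gene. Log2 intensities were centred on each array's median and fitted over all probes and arrays with lmFit and eBayes (limma 3.58.1, R 4.3.3; 3 residual and 5.77 prior degrees of freedom). A contrast was tested where all 4 arrays had a value, with Benjamini-Hochberg adjustment over all probes tested and a threshold of 0.05. Fitted steps were tested on simulated data. Plots used matplotlib 3.10.9. The helicase genes, roles and lists were chosen with earlier results of these data known, and role groups were revised after the values were seen. Named were genes past the threshold, the 6 largest differences of each sign between the precipitates and the 4 of each sign in both comparisons with total RNA, the brightest in total RNA of each role, and genes fixed by name. Other genes were named to complete their role group. The alternatives were other scalings, filters, an offset of 4, other probe choices, a variance trend, fewer arrays and the replicate number as a block.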

Additional observations from a re-analysis of the deposited data

How the results depend on the processing

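Between the MVH and the IgG precipitate, the count of helicase genes called higher was 3 as reported, 5 without the dimmest 25% of probes, 6 after adding an offset of 4, 6 under a variance trend and 0 with only the 4 arrays compared. The count called lower was 3 as reported, 0 with no centring, 5 with quantile normalization, 7 without the dimmest 25%, 6 under each of an offset, 1 probe per symbol, probes listed on all 6 arrays and a variance trend, and 0 with only the 4 arrays compared. With 1 array left out, 0 to 3 were higher and 0 to 1 lower. Against total RNA, the MVH precipitate had 0 called, but 1 higher without the dimmest 25% and 2 with a variance trend. The IgG precipitate had 0 called, but 2 higher and 1 lower without the dimmest 25%, 3 and 1 after the offset, 4 and 1 under a variance trend, and 0 and 1 with quantile normalization, 75th percentile centring, 1 probe per symbol, probes on all 6 arrays or the replicate block. Its median of 0.09 became -0.17 with no centring and lay between -0.0688 and 0.31 with 1 array left out.

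The labels number the arrays 1 and 2 in each group without saying what a number shares, and deviations of same-numbered arrays correlated at 0.101 to 0.157. With the replicate block, 4 helicase genes were higher and 4 lower between the precipitates, Ddx54 (adjusted p = 0.0412) and Ddx5 (0.0378) being added. For single genes, no called difference changed sign under any alternative, though only the other scalings and the offset could have changed one. The cause of these changes was not tested. Dim genes such as Ddx59, Ddx55 and Dhx38 are limited by their signal.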

Other observations

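Ints6, a subunit of the Integrator complex that carries the old DEAD box name Ddx26 as a synonym, lies outside the naming rule and is named here after its values were seen. It had scaled intensities of 915 and 1481 with MVH, 521 and 562 with IgG, against 339 and 357 in total RNA. The groups did not overlap. The log2 difference was 1.11 ± 0.31 between MVH and IgG (limma adjusted p = 0.0612) and 1.74 ± 0.31 between MVH and total RNA (adjusted p = 0.156), neither past the threshold.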
